A study of Mus musculus with 8 samples.

Results

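The 10 genes described here encode the MHC class I antigen presentation machinery and the immunoproteasome: the class I heavy chains H2-D1, H2-K1 and H2-T23, the light chain B2m, the peptide transporter subunits Tap1 and Tap2, the loading factor Tapbp, and the proteasome subunits Psmb8, Psmb9 and Psmb10. Members were picked out by gene name, with earlier results of these data known. On the array 17 probes of 56605 carried one of these names, and the 10 genes were among 25884 genes tested. The data were 8 single-colour Agilent arrays of RNA from C57Bl/6J mice, labelled as astrocytes of the spinal cord. With 1 array for each of 8 groups, no group has a spread of its own. Compared were wild-type (WT) mice and mice deficient in connexin 47 (Cx47, a gap junction protein of oligodendrocytes), each naive, with experimental autoimmune encephalomyelitis (EAE, a mouse model of multiple sclerosis), with EAE and iguratimod (an anti-inflammatory drug), and in the chronic phase of EAE. The series title describes the knockout as conditional and limited to oligodendroglia. The driver of the deletion, the immunization, the age and sex of the mice, the drug's dose and the way the cells were isolated were not given in the sources used here. In the sample titles icKO marks the deficient mice, and FL or F/F the WT mice. The labels do not say whether separate animals were used, so p-values reflect the spread among these arrays alone, which may be technical. With 1 array for each group, that spread is how far arrays depart from 1 genotype effect shared by all conditions. Differences between the genotypes in their response to a condition are part of it and cannot be told apart from noise.

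Class I molecules show peptides from inside the cell to CD8 T cells and natural killer cells. A heavy chain pairs with beta-2-microglobulin, the product of B2m, and is loaded in the endoplasmic reticulum with peptides that the proteasome makes and the Tap1-Tap2 transporter carries in, while tapasin (Tapbp) holds the empty molecule at the transporter. Interferon gamma acts through factors that include Irf1 and Nlrc5 to raise these genes and exchanges the catalytic proteasome subunits Psmb6, Psmb7 and Psmb5 for Psmb9, Psmb10 and Psmb8. Neural cells at rest are known for low class I levels.

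By RefSeq, 8 of the 10 genes lie on chromosome 17, in the order Tapbp, H2-K1, Psmb9, Tap1, Psmb8, Tap2, H2-D1 and H2-T23. B2m lies on chromosome 2 and Psmb10 on chromosome 8. The sequences below show what some members have in common ahead of their start sites. They are the 250 bases upstream of the annotated starts of the classical heavy chains H2-K1 (chr17:34000348-34000597, minus strand) and H2-D1 (chr17:35262844-35263093, plus strand) and of B2m (chr2:122147437-122147686, plus strand), from RefSeq, build GRCm38.p6, written 5′ to 3′. Capitals mark matches, on either strand, to the NF-kB consensus and to GAANNGAAA, a form of the core of the interferon response element.
H2-K1: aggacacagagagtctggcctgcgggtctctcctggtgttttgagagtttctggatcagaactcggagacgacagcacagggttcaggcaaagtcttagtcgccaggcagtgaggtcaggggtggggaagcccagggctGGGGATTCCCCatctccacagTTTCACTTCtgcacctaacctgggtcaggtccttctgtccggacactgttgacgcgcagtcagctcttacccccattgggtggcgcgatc
H2-D1: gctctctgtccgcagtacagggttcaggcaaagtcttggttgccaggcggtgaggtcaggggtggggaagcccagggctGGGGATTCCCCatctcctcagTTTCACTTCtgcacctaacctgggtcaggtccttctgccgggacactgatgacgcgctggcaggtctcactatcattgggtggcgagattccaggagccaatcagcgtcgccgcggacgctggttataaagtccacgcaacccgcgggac
B2m: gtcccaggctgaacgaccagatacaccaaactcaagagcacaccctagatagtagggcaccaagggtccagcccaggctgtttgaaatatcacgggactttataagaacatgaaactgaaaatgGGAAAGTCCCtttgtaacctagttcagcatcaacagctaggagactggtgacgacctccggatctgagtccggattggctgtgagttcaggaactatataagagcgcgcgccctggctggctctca
The H2-K1 and H2-D1 stretches could be aligned over 177 columns with 91.0% identity, and their longest identical run was 47 bases. Each holds 1 match to GAANNGAAA and 2 overlapping matches to the NF-kB consensus. Of these patterns, the B2m stretch matches the NF-kB consensus only. Ahead of that match it holds the letters gaaactgaaa. Within them, aaactgaaa differs from GAANNGAAA in its first base only, so the search for the pattern as written could not find it.

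Tap1 and Psmb9 are transcribed away from each other from starts with 225 bases between them, so both genes share 1 upstream interval (chr17:34187331-34187555, printed on the plus strand, which is that of Tap1). Capitals mark the letters TGACG on either strand, the core shared by the X2 box and the cyclic AMP response element.
Tap1 and Psmb9: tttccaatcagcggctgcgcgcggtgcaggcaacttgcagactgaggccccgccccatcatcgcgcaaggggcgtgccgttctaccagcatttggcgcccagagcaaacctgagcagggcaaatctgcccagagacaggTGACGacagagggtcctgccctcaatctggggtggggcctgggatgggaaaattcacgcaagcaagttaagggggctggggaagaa
Promoter windows were found for 9 of the 10 genes, Tap2 not among them. Over all 27025 upstream stretches of 250 bases, searched on both strands, GAANNGAAA occurred in 6.34% and in 2 of the 9 members (H2-D1 and H2-K1). The NF-kB consensus occurred in 7.01% and in 3 members (H2-D1, H2-K1 and B2m), and TGACG in 17.9% and in 5 (H2-D1, H2-K1, B2m, Tap1 and Psmb9, the last pair within their common interval). CCAAT, the Y box core, occurred in 34.5% and in 7 members. In their common interval Tap1 and Psmb9 hold 1 CCAAT site and 1 TGACG site, each counted for both genes. These are matches of letters to the patterns as written. Other forms of the interferon response element were not searched, and binding was not measured.

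Class I heavy chain genes are close copies of each other, and array probes can be hybridised by more than 1 of them. A probe of H2-K1 and the main probe of H2-T23 illustrate this. Capitals mark the run of 29 bases that both hold.
H2-K1: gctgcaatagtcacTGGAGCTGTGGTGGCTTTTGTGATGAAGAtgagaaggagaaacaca
H2-T23: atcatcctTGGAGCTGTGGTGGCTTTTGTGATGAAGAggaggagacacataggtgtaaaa
This H2-T23 probe also shares a run of 31 bases with a probe named H2-L. No other member probe shared 30 bases or more with a probe of another gene name. Whether the H2-T23 signal includes a copy was not tested.

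Levels are log2 processed signal minus the array's 75th percentile, so a level of 0 is the 75th percentile of all spots on that array, and levels of different genes cannot be ranked. Where a gene had several probes, the brightest on average of those kept stands for it, and all 10 of these probes were well above background on all 8 arrays. Between 59.7% and 72.0% of spots per array were well above background, highest on the chronic arrays, and no spot was saturated. The 2 chronic arrays sat on a slide of their own, so slide and chronic phase cannot be told apart. As a check on the cell type label, 9 of 9 astrocyte markers were well above background on every array, and so were 7 of 7 oligodendrocyte, 7 of 7 neuron and 7 of 7 microglia markers. In such samples, fewer cells of a type and less RNA per cell cannot be told apart.

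In the following values the WT array is given before the Cx47-deficient array. Among the classical heavy chains, H2-K1 stood at 2.04 and 1.90 on the naive arrays, 4.88 and 5.50 in EAE, 4.07 and 5.40 with iguratimod and 2.39 and 2.92 in chronic EAE (probe at chr17:34133055-34133114, mm9, per the file's annotation). H2-D1, the other classical heavy chain, stood at 1.82 and 2.15 on the naive arrays, 3.95 and 4.64 in EAE, 3.21 and 4.53 with iguratimod and 1.81 and 2.22 in chronic EAE (chr17:35403886-35403945). For both genes the EAE and iguratimod arrays were high and the naive and chronic arrays low, with no overlap. H2-T23, which encodes a non-classical class I molecule that signals to natural killer cells, stood at 1.53 and 1.50 on the naive arrays, 3.64 and 4.26 in EAE, 2.96 and 4.09 with iguratimod and 1.57 and 1.73 in chronic EAE. Its untreated and treated EAE arrays did not overlap the naive and chronic ones either. B2m, without which class I molecules do not reach the cell surface, stood at 3.31 and 2.88 on the naive arrays, 5.48 and 5.74 in EAE, 4.99 and 5.75 with iguratimod and 3.27 and 3.75 in chronic EAE (chr2:121978401-121978460). Its highest array was that of Cx47-deficient mice with iguratimod, and its groups did not overlap.

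Among the genes of peptide supply, Tap1 stood at -3.08 and -3.39 on the naive arrays, 0.23 and 0.70 in EAE, -0.78 and 0.47 with iguratimod and -2.59 and -2.19 in chronic EAE (chr17:34334022-34334081). Tap2, its partner in the transporter, stood at 0.24 and -0.17 on the naive arrays, 1.54 and 1.57 in EAE, 0.82 and 1.44 with iguratimod and 0.11 and 0.53 in chronic EAE. Tap1 lay far below the 75th percentile on the naive arrays and above it on 3 of the 4 arrays with EAE or treated EAE. Tapbp stood at 1.63 and 1.50 on the naive arrays, 2.49 and 2.78 in EAE, 1.86 and 2.70 with iguratimod and 1.09 and 1.29 in chronic EAE. Its arrays lay closer together, and its lowest level was that of WT mice in chronic EAE.

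Among the immunoproteasome subunits, Psmb8 stood at -1.89 and -2.29 on the naive arrays, 1.28 and 1.81 in EAE, 0.66 and 1.72 with iguratimod and -1.98 and -1.30 in chronic EAE (chr17:34337771-34337830). Psmb9 stood at -2.02 and -2.72 on the naive arrays, 1.16 and 1.58 in EAE, 0.49 and 1.46 with iguratimod and -1.73 and -1.32 in chronic EAE (chr17:34319174-34319233). Both had a gap between the lowest EAE or treated EAE array and the highest naive or chronic array. Psmb10, the member of this trio outside the class I region, stood at 3.92 and 3.23 on the naive arrays, 4.49 and 4.11 in EAE, 4.16 and 4.33 with iguratimod and 3.28 and 3.50 in chronic EAE (chr8:108459677-108459736). Its 8 arrays spanned the narrowest range of the 10 genes, and the gap between the high and low arrays was small. For 10 of 10 genes the 4 arrays of EAE with or without iguratimod lay above the 4 naive and chronic arrays, as they did for 6.16% of all genes. Over the 10 genes the highest array was that of Cx47-deficient mice with EAE for 8. The exceptions were B2m, highest in Cx47-deficient mice with EAE and iguratimod, and Psmb10, highest in WT mice with EAE. The lowest was that of naive Cx47-deficient mice for 8, with H2-D1 and Tapbp lowest in WT mice with chronic EAE.

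**Figure D1:**
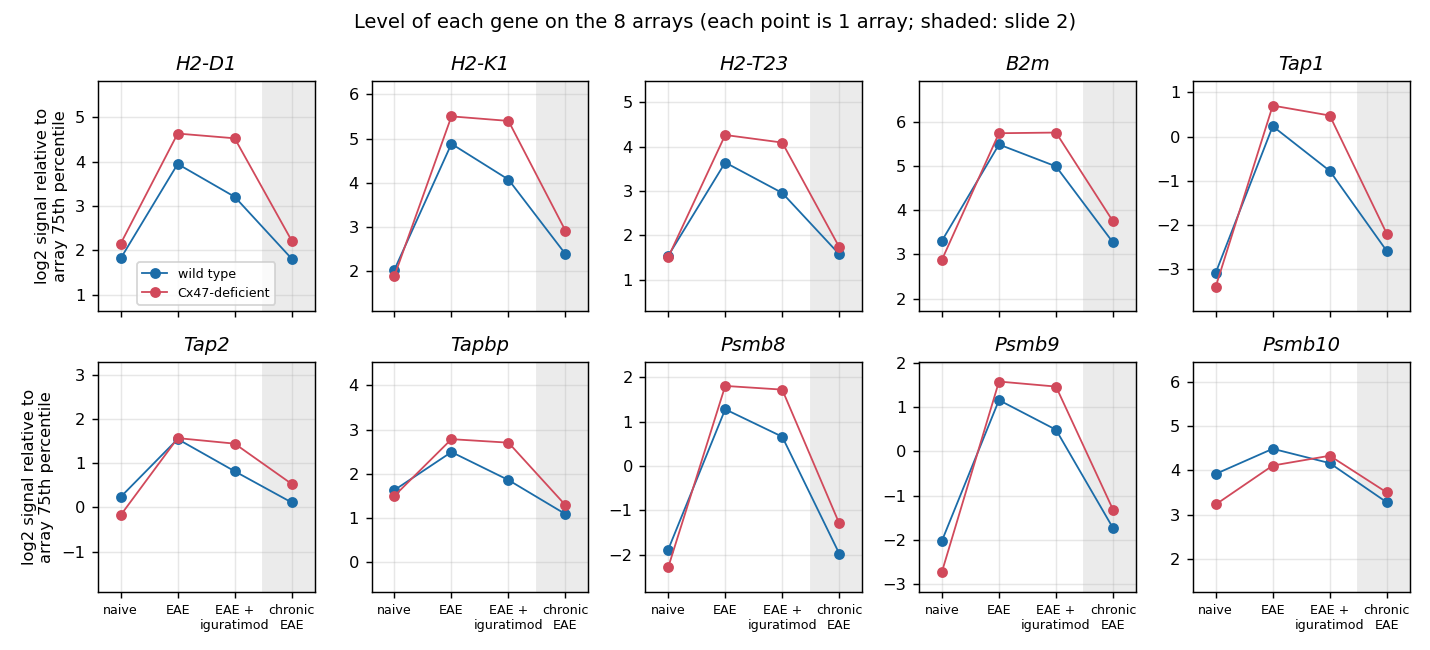
Log2 signal relative to the array's 75th percentile (vertical axis) of each of the 10 genes in 4 conditions (horizontal axis), WT in blue and Cx47-deficient in red, with each point 1 array, lines joining the arrays of a genotype and slide 2 shaded. The points of EAE and iguratimod-treated EAE lie above the naive and chronic points for all 10 genes, and Psmb10 spans the narrowest range, from 3.23 to 4.49.

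The first comparison asked how these genes differ between EAE and naive mice. All 10 were higher in EAE on both genotypes' arrays, from 1.65-fold for Psmb10 to 13.3-fold for Psmb9, but none passed the test. The fit was an additive limma model of condition and genotype over the 8 arrays, with Benjamini-Hochberg adjustment over all genes and a call at an adjusted p under 0.05. It called 0 of 10, with adjusted p from 0.052 to 0.692. Of all genes, 0.247% were called higher. At an unadjusted p under 0.05, the count was 10 of 10 members, beside 7.17% of all genes. The median log2 difference was 2.47 over the members and -0.059 over all genes tested.

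The largest differences were those of Psmb9, 3.74 ± 0.41 (adjusted p = 0.054), Tap1, 3.70 ± 0.38 (adjusted p = 0.052), and Psmb8, 3.63 ± 0.37 (adjusted p = 0.052), on the log2 scale with standard errors from the limma fit over 8 arrays. Tap1 was 13-fold and Psmb8 12.4-fold higher. H2-K1 followed with 3.22 ± 0.36 (adjusted p = 0.054), or 9.34-fold, in the same limma fit. B2m (2.52 ± 0.31, 5.72-fold), H2-T23 (2.44 ± 0.32) and H2-D1 (2.31 ± 0.29) followed. Tap2 differed by 1.52 ± 0.29. The differences between members were not tested. Tapbp (1.07 ± 0.27) and Psmb10 (0.72 ± 0.28) differed least. The calls turned on the processing: with normexp background correction, with median centring, or with probes required above background on all 8 arrays, the same 7 genes were called (H2-D1, H2-K1, H2-T23, B2m, Tap1, Psmb8 and Psmb9), where 0.777%, 1.3% and 0.976% of all genes were called higher.

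**Figure D2:**
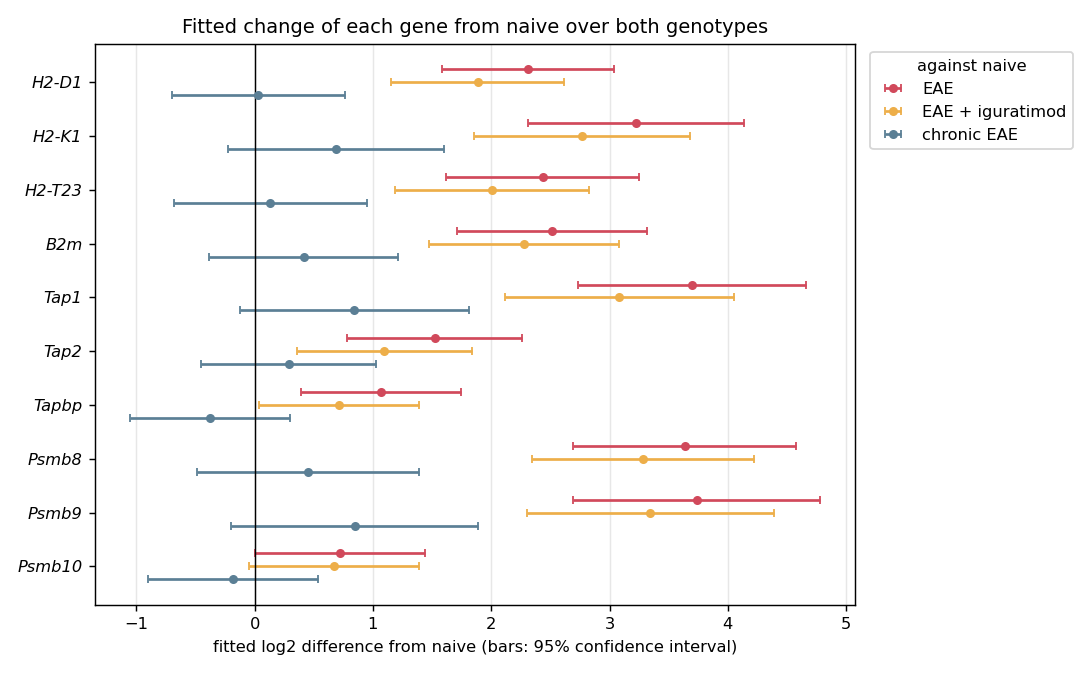
Fitted log2 difference from naive (horizontal axis) of each gene in EAE, iguratimod-treated EAE and chronic EAE, from the additive limma fit over 8 arrays, with bars for 95% confidence intervals. The EAE points run from 0.72 for Psmb10 to 3.74 for Psmb9, and every chronic interval includes 0.

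On single arrays of WT mice, EAE minus naive had a median of 2.15 over the members, and 8 of 10 were 2-fold or more higher, beside 3.35% of all genes measured on those arrays. In Cx47-deficient mice the median was 2.81, with 9 of 10 at 2-fold or more beside 5.08%. These differences between single arrays have no replicate and were not tested.

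The fitted levels of all monocyte and macrophage, T and natural killer cell and neutrophil markers tested were also higher in EAE than in naive mice. Of 8 monocyte and macrophage markers tested, 1 was called higher in EAE (Plac8, at least 54.3-fold higher, adjusted p = 0.035 in the limma fit) and the median log2 difference was 3.34. Here "at least" sets the bright arrays against the lowest signal that counts as well above background on the dim ones. Of 9 T and natural killer cell markers, 0 were called and the median was 2.76. Cd3d, Cd3g, Cd2, Nkg7 and Klrd1 were not well above background on either naive array. The summed level of the T and natural killer cell markers, in log2, ran from 0.40 to 1.17 on the naive arrays, 1.93 to 2.31 in EAE, 1.17 to 2.27 with iguratimod and 0.55 to 0.64 in chronic EAE. Sums weigh bright probes most: Cd4 made up 65.2% of the sum on the WT naive array and 21.5% in Cx47-deficient mice with EAE. The median level of these 9 markers was -5.07 and -5.47 on the WT and Cx47-deficient naive arrays, -2.26 and -0.71 in EAE, -3.23 and -1.12 with iguratimod and -3.85 and -3.48 in chronic EAE. The summed level of the monocyte and macrophage markers ran from 1.68 to 2.16, 5.34 to 6.50, 4.88 to 5.98 and 2.97 to 3.11 in the same order. Of 6 neutrophil markers 1 was called higher (S100a9, 3.28, adjusted p = 0.0472), with a median of 2.90. The medians were 2.47 for 7 endothelial, 0.70 for 7 microglia and 0.027 for 9 astrocyte markers. Of 5 B and plasma cell markers 4 were above 0, with a median of 1.52, and Ms4a1 stood at -0.48. The part of these cells in the class I result was not tested.

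Iguratimod-treated EAE against naive gave smaller differences for each of the 10 genes, again all above 0. They ran from 0.67 ± 0.28 for Psmb10 to 3.34 ± 0.41 for Psmb9, with a median of 2.14. Between them lay Psmb8 at 3.28 ± 0.37, Tap1 at 3.08 ± 0.38, H2-K1 at 2.77 ± 0.36, B2m at 2.28 ± 0.31, H2-T23 at 2.01 ± 0.32, H2-D1 at 1.89 ± 0.29, Tap2 at 1.1 ± 0.29 and Tapbp at 0.71 ± 0.27. The limma fit called 0 of 10 (adjusted p from 0.095 to 0.703), and 0.00386% of all genes were called higher. At an unadjusted p under 0.05 stood 9 of 10 members and 7.47% of all genes. Normexp correction gave 4 called members, median centring 5 and the stricter probe filter 3, beside 0.197%, 0.773% and 0.231% of all genes. This comparison and that of EAE use the same naive arrays.

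Treated against untreated EAE asked what the drug changed. All 10 fitted differences lay below 0, from -0.62 ± 0.38 for Tap1 to -0.051 ± 0.28 for Psmb10, and every 95% confidence interval included 0. H2-K1 differed by -0.45 ± 0.36, with an interval from -1.37 to 0.46. The limma fit called 0 of 10, with each adjusted p at 1 and 0 members at an unadjusted p under 0.05, and it called 0% of all genes. The median of -0.41 rested on WT mice: it was 0.027 without the WT array with iguratimod and -0.80 without the Cx47-deficient one. On single arrays, WT mice had a median of -0.68, with all 10 genes lower and Tap1 lowest at -1.01. In Cx47-deficient mice the median was -0.11, with 2 genes above 0 and a range from -0.22 to 0.22. Genes 2-fold or more lower made up 1.22% of all genes in WT mice and 3.53% in Cx47-deficient mice, against 1 and 0 of the 10. The difference between the genotypes' responses was not tested, as each rests on 1 pair of arrays. In the fit of both genotypes, 0 of 8 monocyte and macrophage (median -0.44), 0 of 9 T and natural killer cell (-0.50), 0 of 5 B and plasma cell (-0.80), 0 of 6 neutrophil (-0.63) and 0 of 7 endothelial markers (-0.88) were above 0, with 0 called. Their part was not tested.

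All 10 genes had lower fitted levels in chronic EAE than in EAE, and 0 were called apart from their naive level. Of the 10, 8 fell in the limma fit, with 5.44% of all genes called lower. Psmb8 fell most, by 3.18 ± 0.37 (adjusted p = 0.0299), followed by Psmb9 at -2.89 ± 0.41 (adjusted p = 0.036) and Tap1 at -2.86 ± 0.38 (adjusted p = 0.0338). H2-K1 changed by -2.54 ± 0.36, H2-T23 by -2.30 ± 0.32, H2-D1 by -2.28 ± 0.29, B2m by -2.10 ± 0.31 and Tapbp by -1.45 ± 0.27. Tap2 differed by -1.23 ± 0.29 (adjusted p = 0.0507) and Psmb10 by -0.91 ± 0.28 (adjusted p = 0.0786), and limma called neither. The median was -2.29. No member was called when either EAE array or either chronic array was left out, whereas 8 were called without either naive array and 6 without either iguratimod array. Slide and phase cannot be told apart here. With the mean of a gene's probes, B2m stood at -1.06 and was no longer called, and H2-T23 at -1.31. Over all alternatives the adjusted p of B2m ran from 0.00911 to 0.234 in limma fits. The second B2m probe alone differed by -0.025 ± 0.57 (adjusted p = 0.978) and the second H2-T23 probe by -0.32 ± 0.18 (adjusted p = 0.232). Markers of several cell types were called lower in the same fit: 6 of 8 for monocytes and macrophages (median -2.72), 3 of 6 for neutrophils (-1.68), 2 of 9 for T and natural killer cells (-1.67), 1 of 7 for endothelium (-1.50), 3 of 7 for oligodendrocytes (-1.20), 2 of 9 for astrocytes (-1.12) and 1 of 7 for microglia (-0.92). The astrocyte markers were Gfap (-2.70) and Gja1 (-1.16). Of 5 B and plasma cell markers 1 was called higher, Ms4a1 (3.18), and of 7 neuron markers 0 were called. Their part in the class I result was not tested.

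Against naive mice, chronic EAE gave differences from -0.38 ± 0.27 for Tapbp to 0.85 ± 0.41 for Psmb9, with 8 of 10 above 0 and a median of 0.35. The limma fit called 0 of 10, with 0 at an unadjusted p under 0.05, beside 0.947% of all genes called in either direction. Every interval included 0. That of Psmb9 ran from -0.20 to 1.89 and that of H2-D1 from -0.70 to 0.76. In the same fit the medians were 1.83 for B and plasma cell, 1.18 for neutrophil, 1.03 for T and natural killer cell and 0.63 for monocyte and macrophage markers. They were -0.40 for microglia and -0.98 for astrocyte markers. Of these lists, 1 B and plasma cell marker was called. The part of these cells in the class I result was not tested, and slide and phase cannot be told apart. On single arrays the genotypes differed in how many of the 10 genes lay above 0. In WT mice 4 of 10 genes were above 0, with a median of -0.023. In Cx47-deficient mice 9 of 10 were, with a median of 0.79 and 3 genes 2-fold or more higher, beside 8.55% of all genes. This difference was not tested.

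Genotype was compared over the 4 conditions. The fitted difference of Cx47-deficient against WT mice was above 0 for 9 of 10 genes, with a median of 0.37, but 0 were called and the limma fit called 0% of all genes. H2-D1 differed most, by 0.69 ± 0.20 (adjusted p = 0.83). It alone of the 10 had an unadjusted p under 0.05 in the limma fit. Psmb10 was the member below 0, at -0.17 ± 0.20. At an unadjusted p under 0.05 stood 4.42% of all genes. H2-K1 differed by 0.58 ± 0.25, H2-T23 by 0.47 ± 0.23 and B2m by 0.27 ± 0.22. Tap1 differed by 0.45 ± 0.27, Tap2 by 0.16 ± 0.20, Tapbp by 0.30 ± 0.19, Psmb8 by 0.47 ± 0.26 and Psmb9 by 0.28 ± 0.29. In the same fit, 8 of 9 T and natural killer cell (median 0.72) and 5 of 5 B and plasma cell markers (0.64) were above 0. So were 7 of 8 monocyte and macrophage (0.41) and 7 of 7 microglia markers (0.34), with 0 called. Of 6 neutrophil markers 2 were above 0 (-0.084), of 7 endothelial 1 (-0.22) and of 7 neuron 0 (-0.23). Of 9 astrocyte markers 6 were above 0 (0.082), and of 7 oligodendrocyte markers 4 (0.008). Their part in the class I difference was not tested.

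In pairs of single arrays from naive mice the Cx47-deficient array was lower for 9 of 10 genes, with a median of -0.36 beside -0.052 over all genes. H2-D1 was the exception at 0.33, while Psmb9 stood lowest at -0.70 and Psmb10 next at -0.69. In EAE 9 of 10 were higher, with a median of 0.44 and a range from -0.38 for Psmb10 to 0.69 for H2-D1. In the naive and EAE pairs no member reached a 2-fold difference, beside 2.63% of all genes 2-fold or more lower and 8.07% higher in the naive pair, and 6.71% higher in the EAE pair. The lower naive levels were shared by other proteasome genes. The median level of Psmb5, Psmb6 and Psmb7 was 3.58 in naive WT and 3.18 in naive Cx47-deficient mice, and that of 11 other core subunits 4.48 and 4.18. That of 20 further class I heavy chain and related genes was higher instead, at -1.71 and -1.54.

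With iguratimod all 10 were higher on the Cx47-deficient array, with a median of 1.02, and 5 of 10 were 2-fold or more higher beside 2.6% of all genes. Those 5 were H2-K1 (1.32), H2-D1 (1.32), Tap1 (1.25), H2-T23 (1.14) and Psmb8 (1.06). Psmb9 (0.98) lay just inside 2-fold, and Psmb10 (0.17) differed least. On the same pair of arrays the summed level of the T and natural killer cell markers was 1.17 in WT and 2.27 in Cx47-deficient mice. That of the monocyte and macrophage markers was 4.88 and 5.98, and that of the microglia markers 5.31 and 6.35. That of the B and plasma cell markers was -2.14 and -1.42. The sums of the neutrophil markers (2.92 and 2.43) and the endothelial markers (3.91 and 3.61) were lower in Cx47-deficient mice instead. Their part was not tested. In chronic EAE all 10 were higher as well, from 0.16 for H2-T23 to 0.68 for Psmb8, with a median of 0.41 and 0 at 2-fold, beside 1.63% of all genes.

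**Figure D3:**
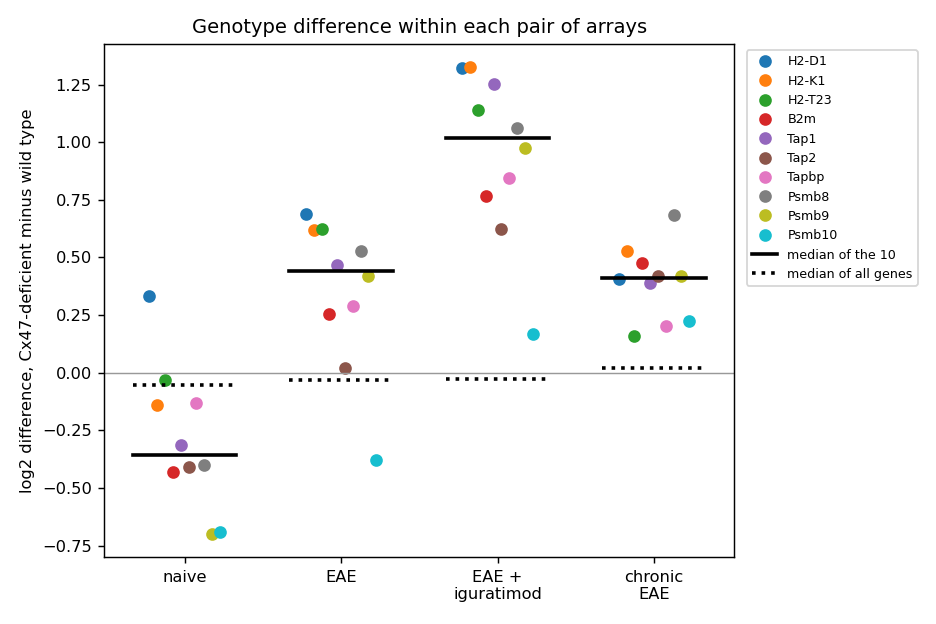
Log2 difference of the Cx47-deficient minus the WT array (1 array each) for each gene in the 4 conditions, with a solid line at the median of the 10 and a dotted line at that of all genes. In naive mice 9 of 10 genes lie below 0, and in iguratimod-treated EAE all 10 lie above 0, with a median of 1.02.

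Other genes of the pathway were read from lists chosen by function. Of 20 further class I heavy chain and related genes tested, 18 were higher in EAE than in naive mice, with a median log2 difference of 1.65, 12 at an unadjusted p under 0.05 and 1 called. The called gene was H2-Q5, at 4.19 ± 0.36 (adjusted p = 0.0433, limma). By size, next came H2-Bl at 2.66 ± 0.34, H2-Q7 at 2.51 ± 0.28 and H2-L at 2.50 ± 0.27. In chronic EAE 13 of the 20 were called lower than in EAE, by limma. H2-Q5 (-3.20), H2-Bl (-3.16) and H2-Q7 (-2.51) were among them, and Fcgrt (-1.45), which encodes the neonatal Fc receptor. Also called lower were H2-Q2 (-2.57), H2-Q8 (-2.62), H2-Q10 (-2.83), H2-T9 (-1.91), H2-T10 (-1.77), H2-T22 (-1.31), H2-M2 (-2.64), H2-L (-2.41) and Hfe (-0.88), which encodes a regulator of iron uptake. H2-Q4 stood at -0.76 in EAE against naive and 1.78 in chronic EAE against EAE, and was called in neither. H2-Q4 was named after its values were seen. Of the probes standing for these genes, that of H2-L shared a long run with a member's probe, as given above. In EAE, H2-L stood at 3.65 in WT and 4.28 in Cx47-deficient mice and H2-Q2 at 3.67 and 4.29, close to H2-T23 at 3.64 and 4.26. Levels of different genes cannot be ranked, so this closeness does not show a common signal. Because the H2-L and H2-T23 probes share a run, counts of such genes may include 1 signal more than once, which was not tested.

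The proteasome subunits that the immunoproteasome replaces had small fitted differences between EAE and naive mice. In EAE against naive, Psmb5 differed by 0.036 ± 0.19, Psmb6 by -0.005 ± 0.19 and Psmb7 by 0.069 ± 0.21, and limma called 0 of 3, with 0 at an unadjusted p under 0.05. Of 11 other core subunits 0 were called, with a median of 0.045. Of 8 activators and assembly factors 0 were called. Psme1, a subunit of the interferon-inducible activator, differed by 0.89 ± 0.27 (adjusted p = 0.441) and was lower in chronic EAE than in EAE by limma (-1.39, adjusted p = 0.0423). Of 10 other genes of peptide loading and trimming 0 were called in EAE, with a median of -0.006. The aminopeptidase Erap1 differed by 0.84 ± 0.25 and the tapasin relative Tapbpl by 0.73 ± 0.19. Tapbpl (-1.10) and the aminopeptidase Lap3 (-1.13) were called lower in chronic EAE than in EAE. Psmb5, Psmb6 and Psmb7 differed by -0.60, -0.56 and -0.62 in chronic EAE against EAE and by -0.56, -0.57 and -0.55 against naive. Limma called 0 of 3 in either comparison, with 3 of 3 at an unadjusted p under 0.05 beside 41.2% and 32.6% of all genes.

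Among 11 transcriptional regulators 0 were called in EAE against naive. Nlrc5, the class I transactivator, was at least 20.1-fold higher (adjusted p = 0.0618, limma), since it was not well above background on either naive array. Irf1 differed by 2.90 ± 0.35 (adjusted p = 0.0618) and Irf8 by 2.13 ± 0.34 (adjusted p = 0.106) in the limma fit. In chronic EAE against EAE 2 of the 11 were called lower, Irf1 (-2.12) and Irf8 (-2.16). Of 8 interferon ligands, receptors and feedback genes 0 were called in EAE. Ifng, which encodes interferon gamma, was at least 2.97-fold higher in EAE than in naive mice (adjusted p = 0.0618) and at least 4.32-fold lower in chronic EAE than in EAE (adjusted p = 0.0291, limma). Socs1, a feedback inhibitor of interferon signalling, differed by 1.36 ± 0.17 in EAE and was called lower in chronic EAE than in EAE (-0.94), as was the interferon receptor chain Ifnar2 (-0.75).

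**Figure D4:**
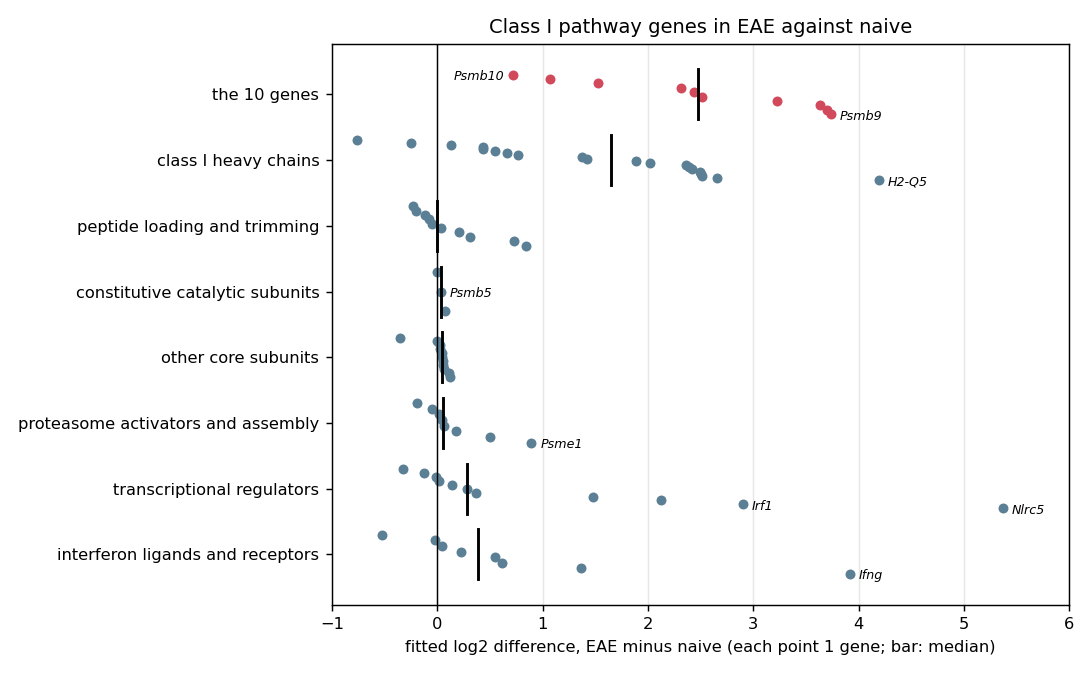
Fitted log2 difference of EAE against naive (horizontal axis) for the 10 genes and the genes of 7 pathway lists, each point 1 gene and each bar a list's median. The proteasome lists lie near 0 and the 10 genes have a median of 2.47. Nlrc5 and Ifng were dim on the naive arrays, so their points depend on dim signals.

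Several genes had more than 1 probe, and these did not all move alike. The second H2-K1 probe differed by 2.91 ± 0.32 (adjusted p = 0.0628) in EAE against naive, in a limma fit of every kept probe. The second H2-T23 probe, named for another transcript and placed at chr17:36168022-36168081, differed by only 0.49 ± 0.18 (adjusted p = 0.703). With the mean of probes in place of the brightest, H2-T23 differed by 1.46 in EAE against naive. The second Tap1 probe differed by 3.05 ± 0.76 (adjusted p = 0.334) and was not well above background on the WT naive and WT chronic arrays. The second Tapbp probe differed by 0.45 ± 0.32 (adjusted p = 0.913).

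The second B2m probe, placed at lower coordinates than the first, at chr2:121974599-121974658, stood at -7.28 and -5.06 on the naive arrays, -3.95 and -2.89 in EAE, -4.64 and -2.99 with iguratimod and -3.36 and -3.53 in chronic EAE. It was not well above background on the WT naive array. Unlike the first B2m probe it was high on both chronic arrays, where the slide also differs. The second probes of Tap2 and Psmb9 were not well above background on any array, so 15 of the 17 probes were kept.

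**Figure D5:**
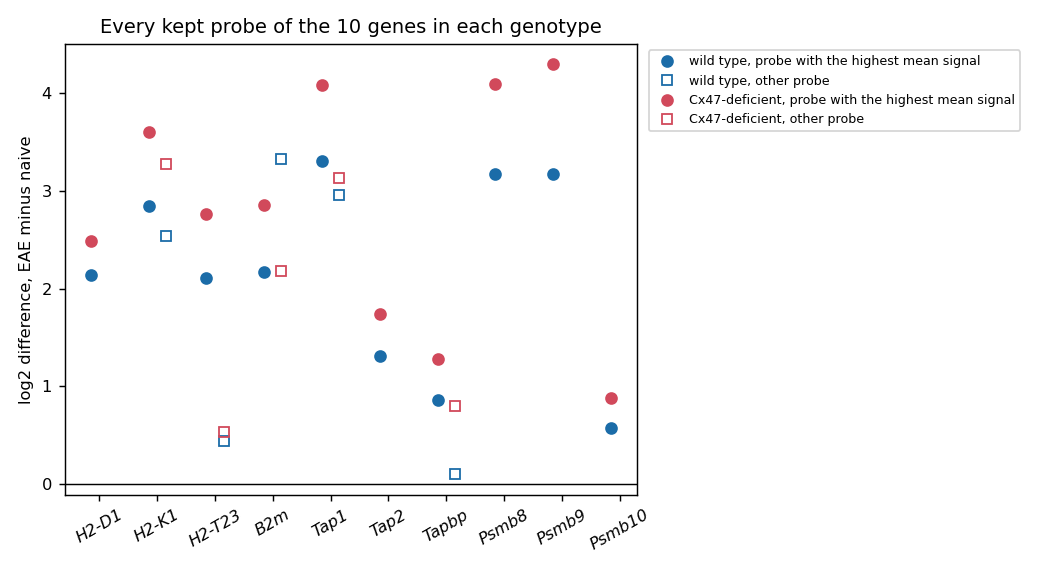
Log2 difference of EAE minus naive for every kept probe of the 10 genes, in WT and in Cx47-deficient mice, each point 1 difference between 2 arrays, filled for the brightest probe of a gene and open for another. The second H2-T23 probe lies at 0.44 in WT and 0.53 in Cx47-deficient mice, below the main probe. That of Tapbp lies at 0.098 in WT and 0.80 in Cx47-deficient mice, and its main probe at 0.86 and 1.28.

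How alike the 10 genes were over the arrays was measured as the root mean square difference between each gene's centred log2 levels and the centred mean of the members. B2m lay closest to that mean (0.091), followed by H2-T23 (0.14) and H2-D1 (0.23), and Psmb10 lay farthest (0.77). The remaining members ran from H2-K1 (0.31) to Tapbp (0.59), farther than the outside genes named next. The mean includes each member itself but no outside gene, so the distances of members and outside genes are not measured alike. Of 20355 other genes above background on all 8 arrays, the closest were LOC547349 (0.11), H2-DMb1 (0.12), Parp10 (0.12), Trim30d (0.14), Il2rg (0.14), Ctsh (0.14), NP883496 (0.15) and Gm11127 (0.15). LOC547349, NP883496 and Gm11127 were counted among class I sequences when probes were compared, and the Gm11127 probe shared a run of 20 bases with the main H2-T23 probe. Whether their signals include those of members was not tested. H2-DMb1 encodes a chain of the molecule that loads class II with peptides, Il2rg the common gamma chain of interleukin receptors and Ctsh the lysosomal protease cathepsin H. The points share arrays and slide, so this is a description over 8 arrays.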

How the data were processed

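RNA levels were read on 8 Agilent arrays of 1 colour, 1 per group. The deposited scanner output gives an intensity per spot. Its software was Feature Extraction 10.7.1.1 by the headers and 9.5.1.1 by the submitters' processing notes, and the difference was not resolved. The processed signal is an intensity with background and spatial trend subtracted, per the file headers. The deposited flag columns hold other values of 0 or 1. The authors' deposited value table holds intensity values, quantile normalized as judged from the values, and served as an alternative only.

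The log2 processed signal minus the array's 75th percentile was used. Control spots and outlier spots (38 to 73 on each array) were dropped and repeat spots averaged. Probes had to be well above background on at least 2 of 8 arrays. Each gene took its brightest such probe, giving 25884 genes, of which 8794 had several kept probes. limma 3.58.1 in R 4.3.3 fitted condition plus genotype over all 8 arrays (3 residual degrees of freedom), with 1 genotype effect for all conditions, and was checked on simulated data. The number of arrays limits the precision. Alternatives were normexp correction (offset 50), quantile or median scaling, other filters and probe rules, the authors' values, slide 1 alone, and leaving out each array.

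Named genes were all members, every probe of theirs, and from each pathway list every gene called in a fit, with at most 4 by size in EAE against naive. Marker genes and H2-Q4 were named after their values were seen. The 8 genes most like the members were ranked among genes above background on all arrays. The members and lists were chosen with earlier results of these data known. H2-Q6, Psme2, Ifnb1, Cd8a, Trac and Cd79a were not tested. Medians of the lists not given above were -0.75 for oligodendrocyte and -0.15 for neuron markers in EAE against naive. A check of the targeted gene and 1 listed regulator are not reported here.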

Additional observations from a re-analysis of the deposited data

Results flagged for a closer look

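Some genes differed between Cx47-deficient and WT mice in opposite directions in naive mice and in another condition. Both log2 differences had to be larger in size than 0.364, the median residual SD of the members. That SD is computed from the same departures between conditions and describes single arrays. It served to pick genes and cannot show that a change exceeds noise. Each value below is the log2 difference in the other condition less that in naive mice, from 4 single arrays, and none of these changes was tested. Against the EAE pair the change was 0.93 for Psmb8 and 1.12 for Psmb9. Against the iguratimod pair it was 1.19 for B2m, 1.03 for Tap2, 1.47 for Psmb8 and 1.68 for Psmb9. Against the chronic pair it was 0.91 for B2m, 0.83 for Tap2, 1.08 for Psmb8 and 1.12 for Psmb9. All 10 share the naive pair of arrays, in which these 4 genes were lower in the Cx47-deficient mouse. On that pair the median level of Psmb5, Psmb6 and Psmb7 was lower as well, as given above.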

How the results depend on the processing

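Of the single-gene values under the alternatives, 894 kept their direction and side of the threshold, 41 passed it, 39 lost it and 26 changed sign. EAE against naive kept its sign in 170 of 170 values, treated EAE against naive in 170 of 170 and chronic EAE against EAE in 160 of 160. The number of members called in EAE against naive was 0 and became 7 with normexp correction, 7 with median centring, 7 with the filter on all 8 arrays and 1 with the mean of probes. For treated EAE against naive it was 0 and became 4, 5 and 3 under normexp correction, median centring and that filter. In chronic EAE against EAE, leaving out 1 array gave between 0 and 8. Over all genes, calls in EAE against naive were 65, with 202 under normexp, 340 under median centring, 201 with the filter on all arrays, 15 with no filter and 38 with quantile scaling; in chronic EAE against EAE they were 3754, with 7579, 6446 and 847 under normexp, median centring and no filter. With slide 1 alone 0 were called in EAE against naive. The cause was not tested.

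Median centring turned chronic EAE against naive to -0.33 for H2-D1, -0.22 for H2-T23 and -0.067 for Tap2, treated against untreated EAE to 0.038 for Psmb10, and the genotype difference to -0.011 for Tap2. Chronic EAE against naive for Psmb10 became 0.052 with the authors' values and 0.053 with quantile scaling. Leaving out 1 array gave chronic EAE against naive from -0.21 to 0.27 for H2-D1, -0.20 to 0.47 for H2-T23, -0.05 to 0.88 for B2m, -0.092 to 0.67 for Tap2, -0.13 to 1.03 for Psmb8 and -0.53 to 0.16 for Psmb10. It gave treated against untreated EAE from -0.95 to 0.0395 for H2-K1, -0.87 to 0.014 for H2-T23, -0.57 to 0.092 for B2m, -0.72 to 0.0059 for Tapbp, -0.75 to 0.045 for Psmb8, -0.86 to 0.074 for Psmb9 and -0.28 to 0.17 for Psmb10, and the genotype difference of Psmb10 from -0.30 to 0.0038. Where leaving out an array left a group of a condition with 1 array, that array was assumed to vary like the others. No paired analysis was possible because each group has 1 array and the labels give no replicate numbers.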
